A study of Mus musculus with 22 samples.

Results

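Chemokines are small secreted proteins that guide leukocytes, and chemokine receptors are the G protein-coupled receptors that read them. Every gene row whose symbol names a CC, CXC, CX3C or XC chemokine, one of their receptors or an atypical receptor was taken, which gave 62 of the 24060 gene rows of the study: 39 ligand genes and 23 receptor genes, 4 of the latter atypical. The rule used gene names only and no measured value. RNA came from the spinal cord of young adult female mice carrying mGFAP-Cre and RiboTag, so that ribosomes carry a hemagglutinin (HA) tag wherever a mouse Gfap promoter has driven Cre, chiefly in astrocytes; all 3 groups carried both. Of each animal, RNA bound to tagged ribosomes was precipitated (HA IP) and the RNA left behind was kept as flow-through. The groups were WT uninjured (n = 4), WT with a severe crush spinal cord injury (SCI) at thoracic level 10 (WT SCI, n = 4), and injured mice that also carried STAT3-LoxP (STAT3-CKO SCI, n = 3), in which the transcription factor STAT3 is removed from Cre-expressing cells. Injured tissue was the central 3 mm of the lesion, taken 14 days after injury. Uninjured STAT3-CKO mice were not analysed here, so the genotype could be compared after injury only.

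CC chemokines such as Ccl2, Ccl3 and Ccl5 draw monocytes, macrophages and T cells through CC receptors such as Ccr1 and Ccr2, and the interferon-induced CXC chemokines Cxcl9, Cxcl10 and Cxcl11 draw T cells and NK cells through Cxcr3. Other pairs are homeostatic: Cxcl12 acts on Cxcr4 and is scavenged by Ackr3, and neuronal fractalkine (Cx3cl1) acts on Cx3cr1, which marks microglia and monocytes. In injured nervous tissue astrocytes, microglia and infiltrating myeloid cells are all known sources of inflammatory chemokines.

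HA IP libraries held 31292491 to 59337089 counts and flow-through libraries 3898755 to 11242654. The share of Rn45s, a ribosomal RNA precursor row, in HA IP was 12.6% to 26.7% without injury. After injury it was 89.0% to 96.2% in WT animals and 52.2% to 89.2% in STAT3-CKO animals, so this share and injury cannot be told apart. The 62 rows together held 7315 to 14370 counts in an uninjured HA IP library. After injury they held 250 to 1676 (WT) and 1752 to 23058 (STAT3-CKO), and 137 to 689 in a WT SCI flow-through library. Levels are given as CPM, counts scaled to a common library size with TMM within a fraction, and the 2 fractions therefore stand on separate scales. The targeted gene Stat3 was lower in STAT3-CKO SCI than in WT SCI HA IP by a log2 difference of -2.17 ± 0.34 (SE, adjusted p = 0.00331). The 6 astrocyte markers summed to 1923 to 3535 CPM in uninjured HA IP, and after injury to 2523 to 4189 (WT) and 1898 to 1993 (STAT3-CKO). All 6 were higher in HA IP than in flow-through of uninjured cord.

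In every animal the flow-through count exceeded the HA IP count in at most 3 of 24060 rows, against 109 to 12654 rows when an HA IP library was set beside the flow-through of another animal of its group. Between 396 and 1432 rows per animal held the same count above 0 in both columns. Among the chemokine rows the flow-through count never exceeded the HA IP count, and in 80 of the 280 cases with a flow-through count above 0 the 2 were identical. The HA IP columns may therefore include the flow-through counts, in which case a value called HA IP here is that of both fractions together and an HA IP to flow-through difference sets both against one of them. How the columns were made was not tested, since no reads were analysed here. The main injury, genotype and fraction results on chemokine genes are also given as the HA IP excess, the HA IP count minus the flow-through count of the same animal, gene by gene, with values below 0 set to 0. Where the excess is set against flow-through, the flow-through count stands on both sides with opposite sign. A gene with a high flow-through count is then pulled lower in the excess by construction.

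**Figure D1:**
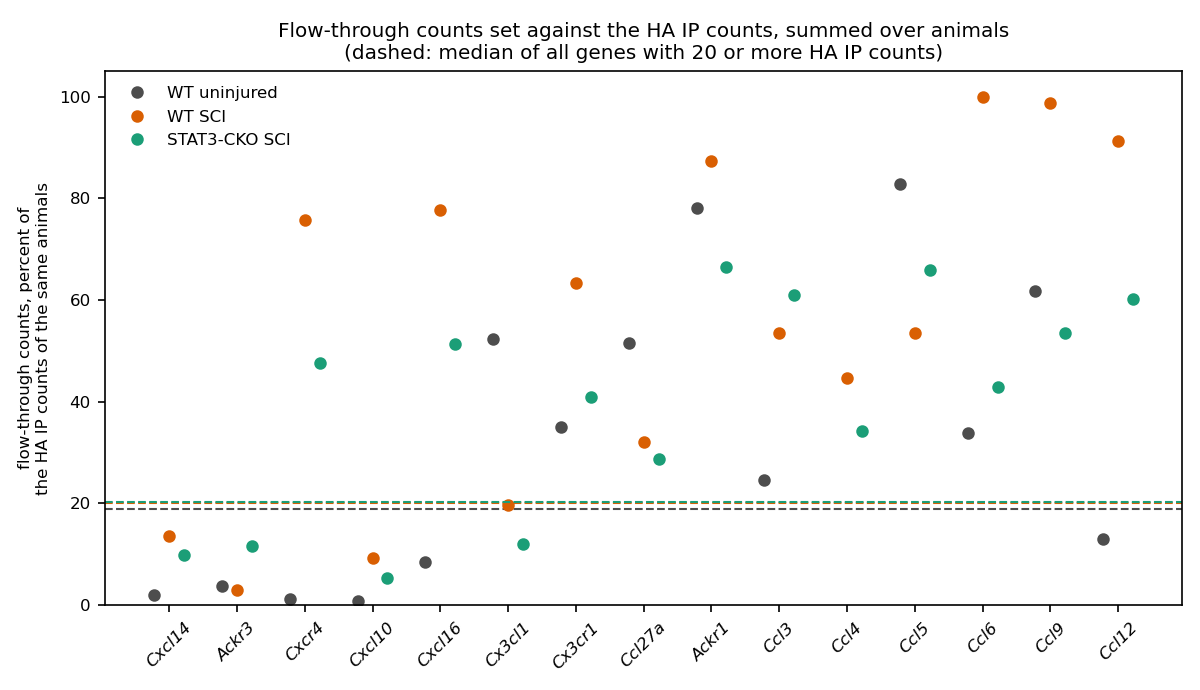
Flow-through counts as a percentage of the HA IP counts of the same animals (vertical axis), summed over the animals of a group, for 15 chemokine and receptor genes; groups with under 20 HA IP counts are not drawn, and dashed lines mark the median over all genes with at least 20. Cxcl10, Ackr3 and Cxcl14 lie below the lines in all 3 groups, whereas Ccl6 and Ccl9 reach 100% and 98.7% in WT SCI.

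The flow-through count was 18.8%, 20% and 20.2% of the HA IP count for the median gene in uninjured, WT SCI and STAT3-CKO SCI animals. For Cxcl10 it was 0.821%, 9.33% and 5.41%, and for Cxcl14 1.96%, 13.6% and 9.81%. Ccl6 and Ccl9 were matched almost count for count in WT SCI, but at 42.9% and 53.5% in STAT3-CKO SCI, and Ccl3, Ccl4 and Ccl5 were matched at 44.6% to 53.5% in WT SCI. Ccl9 had 66, 87, 66 and 84 counts in the WT SCI HA IP libraries and 62, 87, 66 and 84 in the flow-through of the same animals. Ccl6 had 4, 38, 6 and 21 in both.

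Of the 62 rows, 8 had no count in any of the 22 libraries: Ccl20, Ccl21a, Ccl21b, Ccl21c, Ccl27b, Ccr1l1, Ccr8 and Cxcl3. A further 29 had between 1 and 144 counts over all libraries and passed the filter on low counts in neither fraction, among them the neutrophil chemoattractants Cxcl1, Cxcl2 and Cxcl5 with 20, 14 and 8 counts, their receptor Cxcr2 with 4, the monocyte receptor Ccr2 with 126 and the CCR7 ligand Ccl19 with 10. Within a fraction 25 could be tested in HA IP and 19 in flow-through, and a gene could pass the filter through a single group in which it was high. The members sit in clusters, with 14 on chromosome 11, 14 on chromosome 9 and 11 on chromosome 5.

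Injury changed most of the chemokine genes that could be tested in HA IP and in flow-through as deposited. In HA IP, 13 of 25 rose and 1 fell in WT SCI against WT uninjured, at a background of 26.7% of 14764 genes called in either direction and 15.8% called higher. In flow-through, 13 of 19 rose and 3 fell, at a background of 31.0% of 12685 genes called and 16.7% called higher. In the HA IP excess, 8 of 21 rose and 1 fell, at a background of 20.6% of 14241 genes called and 11.2% called higher. Some members that rose passed the filter only with injured libraries, so being tested nearly set their direction. In HA IP they were Ccl2, Ccl3, Ccl4, Ccl5, Ccl7, Ccl12 and Cxcl9. In flow-through they were Ccl3, Ccl4, Ccl5, Ccl6, Ccl12, Cxcl9, Cxcl10, Cxcl16 and Cxcr4, and in the excess Ccl4, Ccl5, Ccl7 and Cxcl9. The backgrounds do not correct for this, and neither do the medians that follow. The median log2 difference of the tested members was 2.61 in HA IP, 4.30 in flow-through and 1.25 in the excess, beside 0.00, -0.09 and -0.08 over all genes tested. In bulk RNA, more cells of a type and more RNA per cell cannot be told apart. Summed over 11 microglia and macrophage markers, HA IP went from 9.49 to 22.5 CPM in uninjured animals to 545 to 2031 in WT SCI, flow-through from 35.0 to 74.9 to 2529 to 7761, and the excess from 3.91 to 17.9 to 75.7 to 651. The part of these cells in the chemokine results was not tested. Neutrophil markers summed to at most 1.96 CPM in any injured HA IP library, and in flow-through to at most 11.8. The sum of the 9 T, B and NK cell markers went from 0.0384 to 0.141 CPM to 0.697 to 2.04 in WT SCI HA IP and from 0.111 to 1.04 to 2.95 to 13.9 in flow-through, and all 9 were at 0 counts in the WT SCI excess. Dendritic cell markers in HA IP summed to at most 1.15 CPM in uninjured and 10.1 in WT SCI animals, and oligodendrocyte markers went from 1117 to 1496 to 4980 to 7734. Their part in the results was not tested either.

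**Figure D2:**
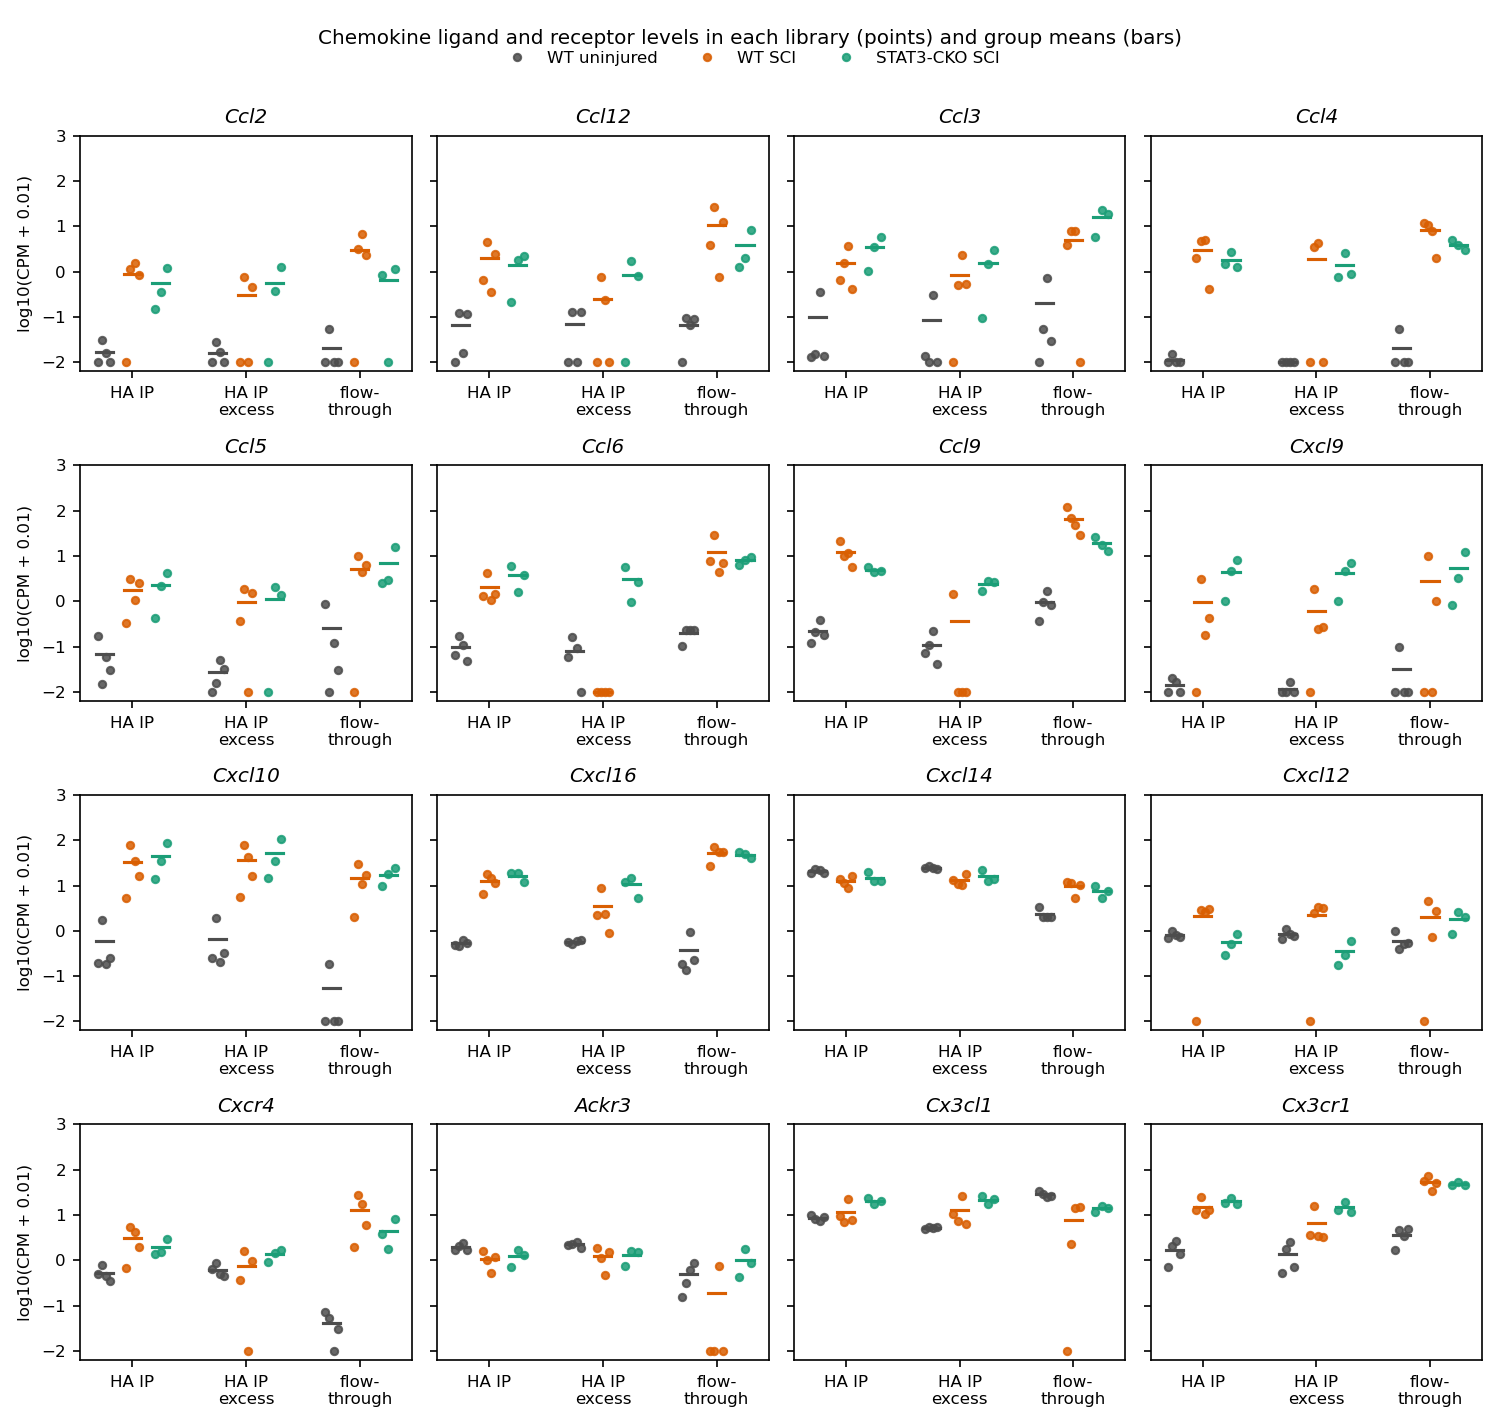
Levels of 16 chemokine ligands and receptors in each library, as log10 of CPM plus 0.01, for HA IP, the HA IP excess and flow-through; points are animals (4 WT uninjured, 4 WT SCI, 3 STAT3-CKO SCI), bars are group means and -2 stands for 0 CPM. Cxcl10 rises with injury in all 3 measures, whereas Ccl6 is at 0 in the excess of all 4 WT SCI animals.

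The CXCR3 ligands Cxcl10 and Cxcl9 both rose in HA IP, the excess and flow-through. The HA IP level of Cxcl10 was 0.180, 1.70, 0.178 and 0.248 CPM in uninjured animals, 5.21, 76.8, 34.0 and 16.1 in WT SCI, and 14.0, 34.0 and 88.6 in STAT3-CKO SCI. Every injured library lay above every uninjured one, and the WT SCI animals differed widely from each other. Cxcl10 rose by a log2 difference of 5.86 ± 0.89 (SE, adjusted p = 9.4e-05) in HA IP, 5.78 ± 0.92 (adjusted p = 0.00032) in the excess and 8.79 ± 0.83 (adjusted p = 5.99e-09) in flow-through. Subtracting the flow-through thus moved the Cxcl10 value by less than its error. Uninjured flow-through held 4 Cxcl10 counts in 1 animal and 0 in the other 3, while the HA IP libraries of these animals held 61, 326, 29 and 71. In flow-through Cxcl10 could therefore pass the filter only through injured libraries, which nearly set its direction there.

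Cxcl9, the second ligand of the same receptor, was close to absent in uninjured cord, with 3 counts over 4 HA IP libraries. It could therefore pass the filter on low counts only through injured libraries. The WT SCI HA IP libraries held 0, 28, 1 and 6 counts, so most came from 1 animal, and STAT3-CKO SCI held 14, 173 and 923. Cxcl9 rose in WT SCI HA IP (adjusted p = 0.000157) and in the excess (adjusted p = 0.000518), with a pooled CPM ratio of 355 in HA IP (95% exact interval 112 to 1803, which covers counting error only), although the WT SCI and uninjured libraries overlapped. Cxcl11, the remaining CXCR3 ligand, had 51 counts in all and was not tested.

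Upstream bases of 4 ligand genes are shown because Cxcl9 and Cxcl10 are neighbours on chromosome 5 and both rose, and because Cxcl14 and Ccl9 differ from them in the excess, where neither was called in WT SCI. The last also holds for other members with a promoter entry, among them Ccl3, Ccl6 and Ccl12, which are not shown. Of the 16 members described by library that have a promoter entry, only Cxcl10, Cxcl14 and Ccl9 held a match to one of the 3 motifs named next, and the other 13 held none. They are the 250 bases before the annotated start, read 5′ to 3′ on the gene's strand from the RefSeq promoter table (GRCm38.p6), and capitals mark matches on either strand to TTCNNNGAA, the core that STAT factors bind, to GAAANN followed by GAAA, the core of the interferon-stimulated response element, or to the kappa-B consensus that NF-kappa-B binds. The stretches are chr5:92348890-92349139 for Cxcl10, chr5:92328080-92328329 for Cxcl9, chr13:56296552-56296801 for Cxcl14 and chr11:83578637-83578886 for Ccl9, all on the minus strand.
Cxcl10: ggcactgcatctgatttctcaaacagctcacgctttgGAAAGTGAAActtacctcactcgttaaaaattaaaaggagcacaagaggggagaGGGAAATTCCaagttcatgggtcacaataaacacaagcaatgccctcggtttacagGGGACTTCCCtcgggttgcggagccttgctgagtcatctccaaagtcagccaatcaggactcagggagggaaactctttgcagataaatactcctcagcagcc
Cxcl9: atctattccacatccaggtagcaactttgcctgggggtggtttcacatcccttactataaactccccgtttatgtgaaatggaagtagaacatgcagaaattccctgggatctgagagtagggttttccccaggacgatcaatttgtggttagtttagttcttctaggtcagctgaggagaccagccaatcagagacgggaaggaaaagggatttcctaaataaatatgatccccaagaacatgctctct
Cxcl14: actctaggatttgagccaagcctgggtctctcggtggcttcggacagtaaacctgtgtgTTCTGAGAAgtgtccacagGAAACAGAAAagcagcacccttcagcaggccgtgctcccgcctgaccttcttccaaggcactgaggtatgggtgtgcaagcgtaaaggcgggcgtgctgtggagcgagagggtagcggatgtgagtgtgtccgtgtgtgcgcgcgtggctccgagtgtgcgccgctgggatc
Ccl9: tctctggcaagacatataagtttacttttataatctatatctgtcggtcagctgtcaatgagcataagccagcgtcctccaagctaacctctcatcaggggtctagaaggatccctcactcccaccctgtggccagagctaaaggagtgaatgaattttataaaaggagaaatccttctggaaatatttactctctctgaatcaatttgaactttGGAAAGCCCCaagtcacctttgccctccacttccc
The Cxcl10 stretch held GAAAGTGAAA from 213 to 204 bases before the start and kappa-B matches, GGGAAATTCC and GGGACTTCCC, from 159 to 150 and from 103 to 94. The Cxcl14 stretch held TTCTGAGAA from 191 to 183 bases before the start and GAAACAGAAA from 172 to 163, and the Ccl9 stretch 1 kappa-B match from 35 to 26. Of 32851 promoter stretches of this length, 7.02% held TTCNNNGAA, 2.98% held GAAANN followed by GAAA and 3.90% held the kappa-B consensus. Of 53 stretches of members, 4, 3 and 9 held them. Of the 22 members described by library, those with no entry in the table include Ccl2, Ccl4, Ccl5, Ccl7 and Cxcl16. A match is a description of letters and not a shown site.

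Among the ligands of Ccr2, the receptor by which monocytes leave the blood, 3 of 4 could be tested in HA IP. All 3 rose in WT SCI, at a background of 15.8% of genes called higher. With 5 and 10 counts over the uninjured HA IP libraries, Ccl2 and Ccl7 could pass the filter only through injured libraries. Being tested thus nearly set their direction. Ccl12, with 0, 22, 1 and 31 counts in uninjured HA IP, also needed injured libraries to pass, there and in flow-through. The background does not correct for this. Ccl2 had 0, 4, 1 and 0 counts in uninjured HA IP and 0, 10, 9 and 12 in WT SCI, a log2 difference of 7.02 ± 1.28 (SE, adjusted p = 0.000501). Flow-through of the same WT SCI animals held 0, 4, 9 and 7 Ccl2 counts, and Ccl2 did not pass the filter on low counts in the excess. Ccl7 had 0, 33, 0 and 10 counts in WT SCI HA IP and none in WT SCI flow-through. It rose by 6.44 ± 1.58 (adjusted p = 0.00549) in HA IP and 6.72 ± 1.83 (adjusted p = 0.015) in the excess, with all counts in 2 of 4 animals, and 3 of the libraries, left out singly, ended the latter call (adjusted p of at most 0.0578). Ccl12 rose by 5.18 ± 1.19 (adjusted p = 0.00359) in HA IP and 7.68 ± 0.96 (adjusted p = 5.8e-07) in flow-through. In WT SCI, 91.4% of its HA IP counts were matched by flow-through, and the difference in the excess was 2.15 ± 1.57 (adjusted p = 0.339). Ccl8 had 4 counts in WT SCI HA IP, the same 4 in flow-through and none in uninjured cord.

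The 5 CC ligands Ccl3, Ccl4, Ccl5, Ccl6 and Ccl9, which attract macrophages and other leukocytes, all rose in both fractions. The background was 15.8% of genes called higher in HA IP and 16.7% in flow-through. Ccl4 too could pass the filter only through injured libraries, so being tested nearly set its direction. The same held for Ccl3 in both fractions, for Ccl5 in HA IP, the excess and flow-through, and for Ccl6 in flow-through. The background does not correct for this. Ccl4 had 1 count over 4 uninjured HA IP libraries and 6, 42, 29 and 6 in WT SCI, a pooled CPM ratio of 2523 with a 95% exact interval of 441 to 100852 (adjusted p = 3.2e-06). In the excess Ccl4 held 0, 28, 18 and 0 counts in the WT SCI animals against 0 in all uninjured ones, at least 468-fold higher against a floor of 3 counts over the group (adjusted p = 0.001). Ccl5 rose by 4.90 ± 1.00 (SE, adjusted p = 0.00143) in HA IP and by 5.81 ± 1.44 (adjusted p = 0.00853) in the excess. Ccl4 and Ccl5 thus kept their call after subtraction, and the other 3 ligands did not.

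Ccl9 was 0.112, 0.203, 0.373 and 0.167 CPM in uninjured HA IP and 21.5, 9.84, 11.5 and 5.76 in WT SCI, a log2 rise of 5.81 ± 0.57 (SE, adjusted p = 1.08e-06). In WT SCI the excess was 1.46 CPM in 1 animal and 0 in the other 3, a difference of 1.22 ± 1.40 (adjusted p = 0.559). Ccl6 rose by 4.55 ± 0.75 (adjusted p = 0.000212) in HA IP, and its excess was 0 counts in all 4 WT SCI animals against 51 in uninjured ones. The 51 counts stand for 0 to 0.154 CPM an animal, and 1 excess count in WT SCI animal 9596 is already 0.0888 CPM. At this depth the 0 does not show a lower level. In flow-through Ccl9 and Ccl6 rose by 6.15 ± 0.50 (adjusted p = 3.82e-10) and 6.03 ± 0.65 (adjusted p = 5.84e-08). Ccl3 rose by 4.14 ± 1.25 (adjusted p = 0.0203) in HA IP and by 4.99 ± 1.08 (adjusted p = 0.000847) in flow-through, with an excess difference of 3.46 ± 1.57 (adjusted p = 0.122). Its HA IP call was lost without any of uninjured animals 42 and 79 and WT SCI animal 9843, with an adjusted p of at most 0.0735 and a lowest difference of 3.33. Uninjured animal 65 held 58 of the 61 uninjured counts, and without it the difference was 8.31.

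**Figure D3:**
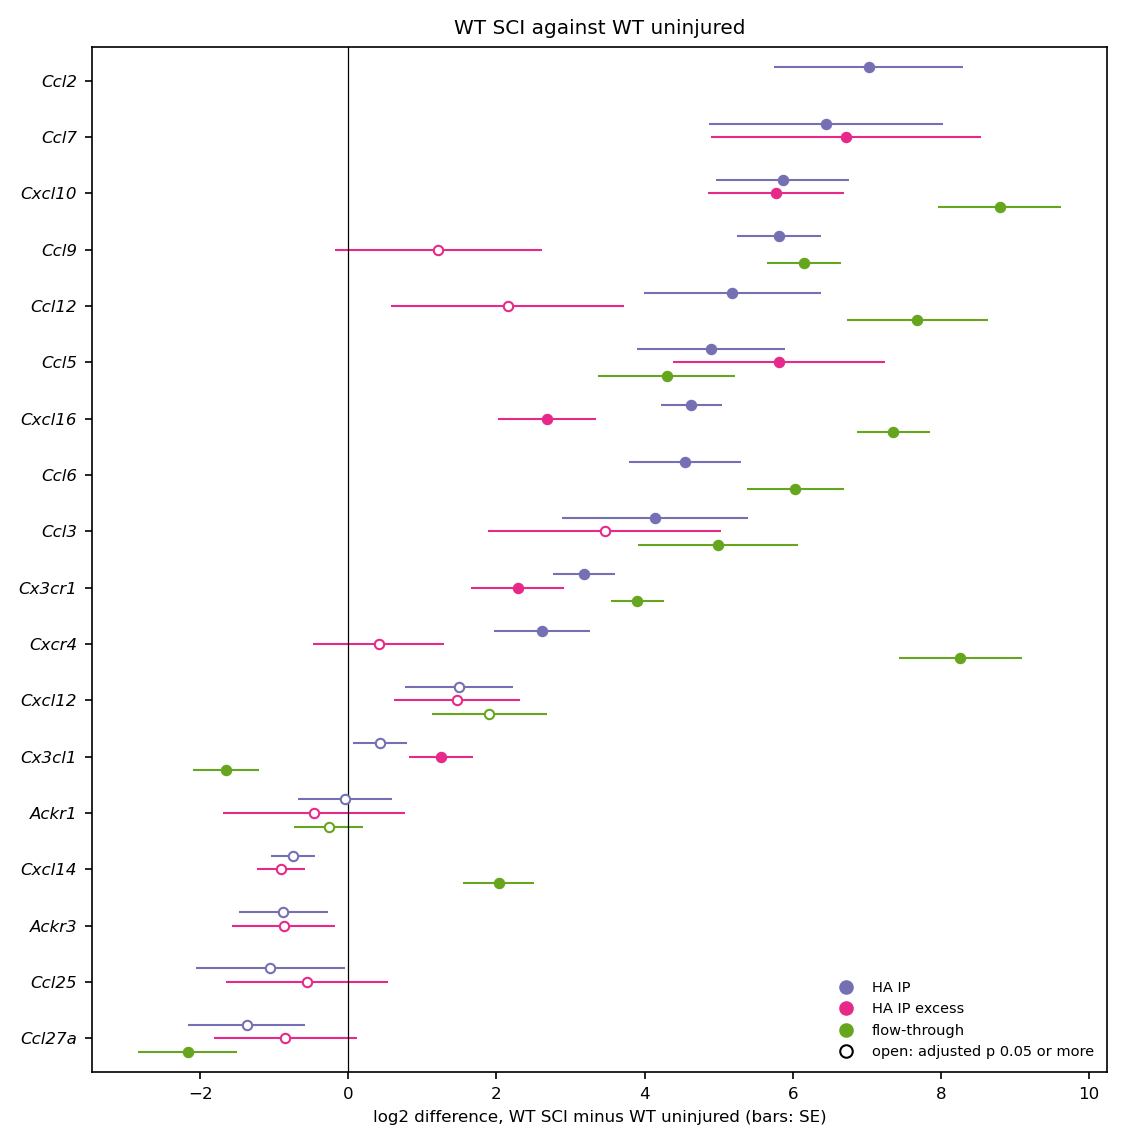
Log2 differences of WT SCI minus WT uninjured with SE (horizontal axis) for the members described here, in HA IP, the HA IP excess and flow-through; filled points have an adjusted p under 0.05, and comparisons with 3 or fewer counts in a group are not drawn. For Ccl9 the difference is 5.81 in HA IP and 1.22 in the excess, and for Cx3cl1 it is 1.25 in the excess and -1.65 in flow-through.

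Cxcl16, a transmembrane chemokine that binds Cxcr6, rose in all measures. Its HA IP level was 0.464, 0.454, 0.624 and 0.534 CPM in uninjured animals and 6.52, 18.2, 14.8 and 11.5 in WT SCI. The groups did not overlap, and the log2 rise was 4.63 ± 0.41 (SE, adjusted p = 4.23e-07). The excess rose by 2.68 ± 0.66 (adjusted p = 0.00876), and by 1.60 without WT SCI animal 9874 (adjusted p = 0.0584). Flow-through rose by 7.36 ± 0.50 (adjusted p = 1.4e-11), from 0.130 to 0.953 CPM up to 27.6 to 69.7. Cxcl16 passed the flow-through filter only with injured libraries, so being tested nearly set its direction there. Cxcr6 itself had 6 counts in WT SCI HA IP and the same 6 in flow-through.

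Cxcl14, a CXC chemokine made in resting tissue, changed with injury in flow-through and not by the test in HA IP. In uninjured HA IP it was at 19.0, 23.5, 22.5 and 18.6 CPM, and in WT SCI at 13.7, 11.3, 8.89 and 15.9. These groups did not overlap, but the difference of -0.74 ± 0.29 did not pass the test (SE, adjusted p = 0.0675), nor did -0.91 ± 0.32 in the excess (adjusted p = 0.0502). In flow-through Cxcl14 rose from 3.32, 1.99, 1.96 and 2.01 CPM to 11.8, 11.6, 5.16 and 10.2, a log2 difference of 2.03 ± 0.48 (adjusted p = 0.00189). The injury effect was lower in HA IP than in flow-through by -2.58 ± 0.49 (adjusted p = 0.00136), and by -2.67 ± 0.53 (adjusted p = 0.000915) with the excess in place of HA IP. Summed astrocyte markers moved in flow-through as well, from 90.6 to 151 CPM to 595 to 819, and the part of this in the Cxcl14 value was not tested.

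Of 9 other CC ligands, which include mucosal and skin chemokines, 3 could be tested in HA IP. Ccl28 fell to 1 count over 4 WT SCI HA IP libraries from 306, 116, 80 and 179 counts in uninjured ones, a pooled ratio of 22.4 with a 95% exact interval of 4.01 to 886 (adjusted p = 0.0203), and the excess held the same single count (adjusted p = 0.0455; lost without any one of 9 of the 11 libraries). Ccl27a fell in flow-through by 2.17 on the log2 scale, a difference of -2.17 ± 0.67 (SE, adjusted p = 0.0157). Of its 18 WT SCI flow-through counts 17 were in animal 9596, without which the difference was -5.07; without other single libraries it reached -1.77. Ccl25 had 0 counts in WT SCI flow-through against 216 in uninjured flow-through, at least 2.85-fold lower against a floor of 3 counts over the group (adjusted p = 0.0482). The Ccl25 call was lost without any one of 7 of the libraries, with an adjusted p of at most 0.134. Ccl28 in HA IP and in the excess, and Ccl25 in flow-through, passed the filter only with uninjured libraries. Being tested therefore nearly set the direction of these falls.

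In the Cxcl12 system the receptor changed and the ligand did not pass the test. Cxcr4 had 4, 1, 0 and 1 counts in uninjured flow-through and 1, 35, 24 and 18 in WT SCI, a log2 rise of 8.26 ± 0.83 (SE, adjusted p = 1.77e-08). In flow-through it could pass the filter only through injured libraries, so being tested nearly set its direction there. In HA IP it was already present in uninjured animals, at 0.488, 0.767, 0.441 and 0.349 CPM, and rose by 2.61 ± 0.65 (adjusted p = 0.00619). Of its WT SCI HA IP counts 75.7% were matched by flow-through, against 1.24% in uninjured animals, and the excess differed by 0.41 ± 0.88 (adjusted p = 0.77). The injury effect on Cxcr4 was lower in HA IP than in flow-through by -5.63 ± 1.05 (adjusted p = 0.00107), and by -7.72 ± 1.22 (adjusted p = 6.17e-05) with the excess. Cxcl12 was at 0 to 3.02 CPM in WT SCI HA IP and 0.680 to 0.991 in uninjured HA IP, and its WT SCI animal at 0 had the fewest member counts. Ackr3, the scavenging receptor, was at 1.67 to 2.39 CPM in uninjured and 0.523 to 1.63 in WT SCI HA IP, without overlap and without a call.

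In the fractalkine pair the ligand fell in flow-through and rose in the HA IP excess. Cx3cl1 was at 34.7, 29.3, 25.6 and 26.8 CPM in uninjured flow-through and at 0, 2.32, 14.0 and 15.0 in WT SCI, a log2 difference of -1.65 ± 0.44 (SE, adjusted p = 0.00554). Neuron markers in flow-through went from 2200 to 2845 CPM to 177 to 458 in the same libraries, and their part in the Cx3cl1 value was not tested. In HA IP it was at 10.2, 8.30, 7.39 and 9.11 CPM in uninjured and 9.45, 7.01, 23.0 and 7.82 in WT SCI animals, a difference of 0.43 ± 0.36 (adjusted p = 0.401). In the excess it rose from 4.97, 5.41, 5.09 and 5.56 to 10.6, 7.34, 26.4 and 6.21, by 1.25 ± 0.43 (adjusted p = 0.0461). That call was lost without any one of 8 of the 11 libraries, with a lowest difference of 0.59 without WT SCI animal 9843 (adjusted p = 0.225). The flow-through count of Cx3cl1 was 52.4% of the HA IP count in uninjured and 19.6% in WT SCI animals. The excess subtracts it, so a fall in flow-through raises the excess difference by construction. The injury effect on Cx3cl1 was higher in HA IP than in flow-through by 2.28 ± 0.61 (adjusted p = 0.0236), or 3.20 ± 0.67 (adjusted p = 0.00173) with the excess; the former was lost without WT SCI flow-through 9874, WT SCI HA IP 9843 or STAT3-CKO SCI HA IP 270, with differences of 1.96, 1.74 and 2.04 and adjusted p of 0.0571, 0.0687 and 0.0554.

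Cx3cr1, the receptor of microglia and monocytes, rose in both fractions. Its flow-through level was 1.72, 4.68, 3.36 and 4.81 CPM in uninjured and 57.2, 74.3, 34.7 and 52.1 in WT SCI animals, a log2 rise of 3.90 ± 0.35 (SE, adjusted p = 3.09e-09). HA IP rose by 3.18 ± 0.42 (adjusted p = 2.25e-05) and the excess by 2.29 ± 0.63 (adjusted p = 0.0156), the latter with an adjusted p of at most 0.0923 when single libraries were left out and a difference of 1.35 without WT SCI animal 9874. Ccr10, the receptor of Ccl27a and Ccl28, had 9, 14, 17 and 47 counts in uninjured HA IP and 0 in all 7 injured HA IP libraries. At WT SCI depth this 0 does not show a lower level, because 3 counts there would already exceed the uninjured level; in STAT3-CKO SCI it was at least 4.95-fold lower, with an adjusted p of 0.0516. Ccr10, Cxcr6, Ccl8 and the untested genes named above were picked after their values were seen. Ackr1, which takes up many inflammatory chemokines on venules and red cells, was at 1.16 to 3.41 CPM in uninjured and 1.13 to 5.21 in WT SCI HA IP, which overlapped. In uninjured flow-through Ackr1 was at 6.11 to 15.8 CPM, while endothelial markers summed to 0.168 to 0.361. The cells that gave the Ackr1 counts were not tested.

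STAT3-CKO SCI against WT SCI gave no called chemokine gene in edgeR's quasi-likelihood test: 0 of 25 in HA IP, 0 of 21 in the excess and 0 of 19 in flow-through. The background was 1.16%, 1.24% and 0.118% of genes called. At an unadjusted p under 0.05 there were 5, 7 and 3 members. DESeq2 called 1 member in HA IP, 2 in the excess and 1 in flow-through: Cxcl12, lower by -2.03 in HA IP (adjusted p = 0.024), Cxcl12 and Ccl6 in the excess and Ccl9, lower by -1.87 in flow-through (adjusted p = 0.0431). By DESeq2 5.87%, 7.84% and 1.41% of all genes were called, so the members' shares in HA IP and the excess were near the background.

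**Figure D4:**
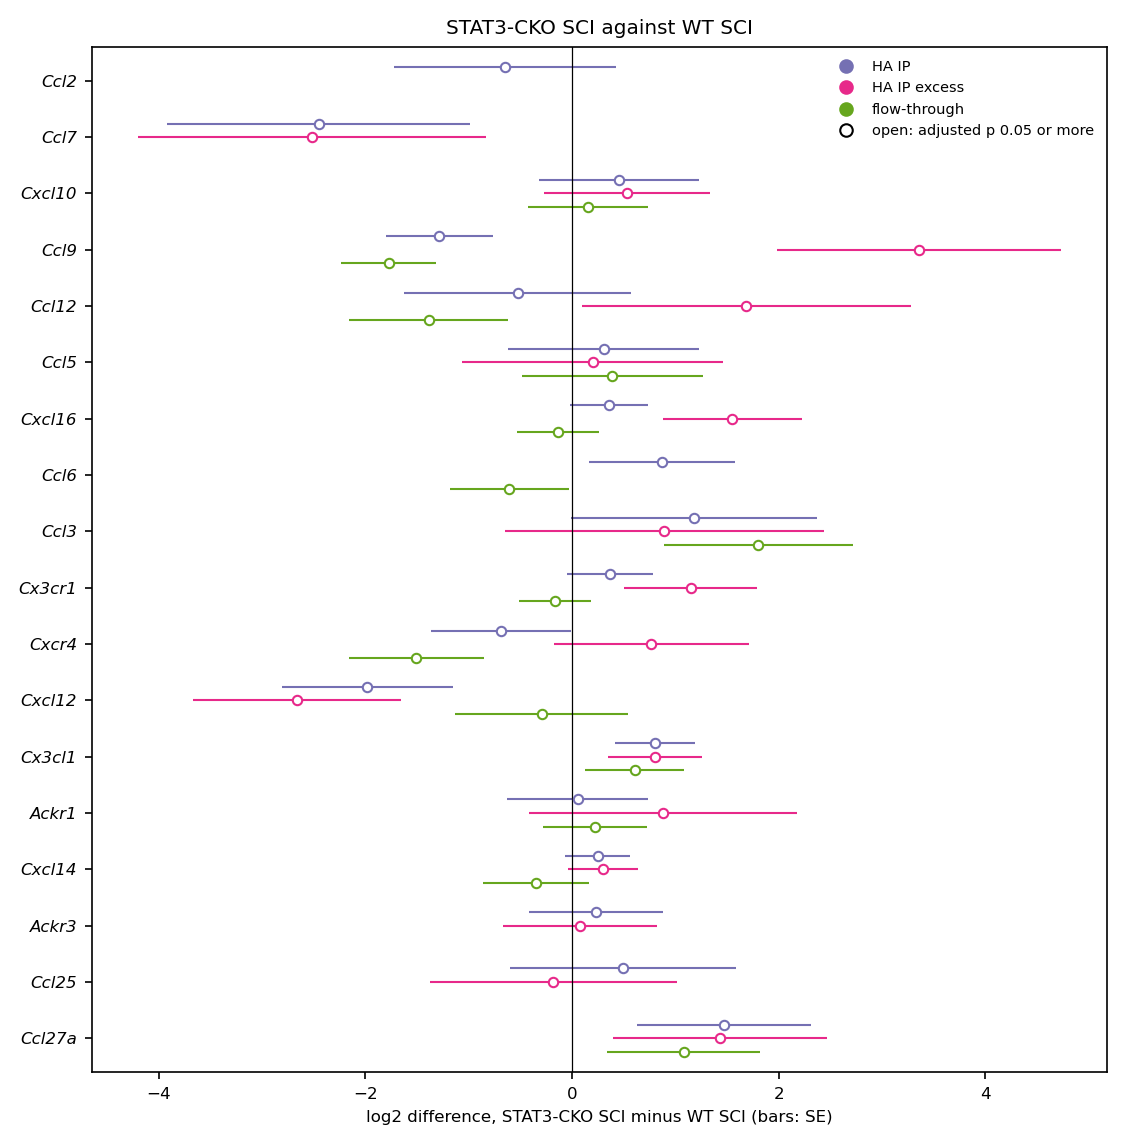
Log2 differences of STAT3-CKO SCI minus WT SCI with SE (horizontal axis) in HA IP, the HA IP excess and flow-through; open points have an adjusted p of 0.05 or more, and comparisons with 3 or fewer counts in a group are not drawn. No point is filled, and Cxcl10 lies at 0.45 in HA IP with an SE of 0.78.

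The errors of these differences were wide. Cxcl10 differed by 0.45 ± 0.78 (SE, adjusted p = 0.814) in HA IP between 4 and 3 animals whose levels overlapped from 5.21 to 88.6 CPM, and by -0.48 without STAT3-CKO SCI animal 270. Cxcl9 was higher in STAT3-CKO SCI HA IP by 2.16 ± 0.97 and in the excess by 2.70 ± 1.04, both short of a call (adjusted p = 0.276 and 0.185). Cxcl12 was at 0.280, 0.509 and 0.847 CPM in STAT3-CKO SCI HA IP, below 3 of the 4 WT SCI libraries at 2.62 to 3.02 and above the fourth at 0, a difference of -1.98 ± 0.83 (adjusted p = 0.242) and of -2.66 ± 1.00 in the excess (adjusted p = 0.178). Ccl9 in flow-through was at 26.4, 17.8 and 13.0 CPM in STAT3-CKO SCI, below all 4 WT SCI libraries at 28.6 to 122, with a difference of -1.78 ± 0.46 (adjusted p = 0.114). In HA IP it differed by -1.29 ± 0.52 (adjusted p = 0.227), but in the excess by 3.36 ± 1.37 (adjusted p = 0.212), the opposite sign. The excess of Ccl6 was 5.75, 0.933 and 2.62 CPM in STAT3-CKO SCI and 0 in all WT SCI animals, with an adjusted p of 0.0547. For Ccl9 the genotype effect differed between the excess and flow-through by 5.50 ± 1.14 (adjusted p = 0.0337), the only such call among 29 members, at a background of 0.107%. This call was lost without any one of 9 libraries, and it has the flow-through count on both sides. Set on HA IP as deposited, 0 of 32 members differed, at a background of 0.0264% and with 0 at an unadjusted p under 0.05.

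Against WT uninjured, STAT3-CKO SCI animals showed 12 of 25 members higher in HA IP and none lower, at a background of 9.78% of genes called and 7.7% called higher. In flow-through 13 of 19 were higher and none lower, at a background of 13.9% and 10.4%, and in the excess 9 of 21 were higher, at 5.91% and 4.62%. As in WT SCI, several of the higher members passed the filter only with injured libraries, which nearly set their direction. This comparison shares its uninjured libraries with that of WT SCI, so values are set side by side. Cxcl10 rose by 6.32 ± 0.93 (SE, adjusted p = 0.000117) in STAT3-CKO SCI HA IP, where WT SCI gave 5.86, and by 6.31 ± 0.96 in the excess (adjusted p = 0.000501). Cxcl16 rose by 4.99 ± 0.42 (adjusted p = 2.38e-07), where WT SCI gave 4.63, and by 4.23 ± 0.71 in the excess (adjusted p = 0.00137). Cx3cr1 rose by 3.55 ± 0.44 (adjusted p = 1.75e-05), where WT SCI gave 3.18, and by 3.44 ± 0.67 in the excess (adjusted p = 0.00387). Ccl6 and Ccl9, whose rise ended after subtraction in WT SCI, were called in the STAT3-CKO SCI excess at 5.42 ± 1.28 (adjusted p = 0.019) and 4.57 ± 1.21 (adjusted p = 0.03), though 4 and 6 of the libraries, left out singly, ended these calls. Cx3cl1 rose by 1.23 ± 0.38 (adjusted p = 0.0459) in HA IP, lost without any one of 7 libraries, and by 2.05 ± 0.45 (adjusted p = 0.00919) in the excess.

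HA IP was also set against flow-through within a condition. In uninjured cord 9 of 17 tested members differed, near the background of 50.7% of 14312 genes. Higher in HA IP were Cxcl14 by 3.40 ± 0.21 (SE, adjusted p = 5.68e-07), Cxcr4 by 4.00 ± 0.64 (adjusted p = 0.000369), Ackr3 by 2.29 ± 0.46 (adjusted p = 0.00174) and Cxcl10 by 4.45 ± 1.34 (adjusted p = 0.0175), the last lost without flow-through 154 (3.88, adjusted p = 0.0559) and at 9.52 without flow-through 79, which held all 4 counts. Lower were Cx3cl1 by -1.47 ± 0.16 (adjusted p = 2.86e-05), Ccl27a by -1.56 ± 0.18, Ackr1 by -2.0 ± 0.41, Ccl9 by -1.86 ± 0.55 and Ccl17 by -2.04 ± 0.65, of which Ccl9 and Ccl17 were lost without flow-through 65 (-1.44) and 42 (-1.44). In the excess 8 of 16 differed, below the background of 59.2%, with all 4 of the higher genes at 2.51 to 4.67 and Ccl17 no longer called.

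In WT SCI 3 of 13 members differed between the fractions, all lower in HA IP, at a background of 6.25%: Ccl9 by -2.27 ± 0.49 (SE, adjusted p = 0.0071), Cxcl16 by -1.82 ± 0.41 (adjusted p = 0.0102) and Cx3cr1 by -1.62 ± 0.40 (adjusted p = 0.0177). Leaving out single flow-through libraries ended each of these calls, with adjusted p of at most 0.055 for Ccl9, 0.0708 for Cxcl16 and 0.106 for Cx3cr1. With the animal as a replicate block, 7 members were lower, at a background of 12.9% of genes called in that fit: these 3 with Ccl6 at -2.25, Ccl12 at -2.09, Cxcr4 at -1.78 and Ackr1 at -2.03. The excess set against flow-through holds the flow-through count on both sides, so it is no separate check. In it 5 of 9 were lower, at a background of 12.2%, and Cxcl16 among them by -3.56 ± 0.63 (adjusted p = 0.000792). Ackr1 was another, at -4.05 ± 1.27 (adjusted p = 0.0402), and lost its call without any one of 7 of the 8 libraries (adjusted p of at most 0.155). No chemokine gene was called higher in WT SCI HA IP than in flow-through; Cxcl10 stood at 1.29 ± 0.64 (adjusted p = 0.262).

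In STAT3-CKO SCI 7 of 24 members differed, at a background of 11.8%. Cxcl14 at 1.26 ± 0.39 (SE, adjusted p = 0.0405) and Cxcl10 at 1.63 ± 0.50 (adjusted p = 0.0411) were higher in HA IP, and Ccl9, Cxcl16, Ackr1, Cx3cr1 and Ccl3 were lower, by -1.0 to -1.90. In the excess the same number, 7 of 21, were called, at a background of 17.0%. Each of these HA IP calls was lost without at least 1 of the 6 libraries, and Cxcl10 stood at 0.65 without HA IP 270 (adjusted p = 0.36). With the animal as a replicate block 9 members differed, at a background of 24.5%: these 7 with Cx3cl1, higher in HA IP by 0.81 (adjusted p = 0.021) and in the excess by 0.96 (adjusted p = 0.0383), and Ccl5, lower by -1.28 in HA IP (adjusted p = 0.0487) and -2.49 in the excess (adjusted p = 0.022). Under the block Cxcl10 stood at 1.47 (adjusted p = 9.57e-08). Across the fractions, the injury effect itself differed for 4 of 32 members, at a background of 4.71%: Cxcr4, Cxcl14 and Cx3cl1, given above, and Cxcl16, lower in HA IP by -2.53 ± 0.59 (adjusted p = 0.00836). With the excess in place of HA IP, the flow-through count again stands on both sides. There 6 of 29 differed, at a background of 10.3%, the same 4 with Ccl6 and Ccl9. Ccl6 and Ccl9 rest on excess counts of 0 in all or 3 of the 4 WT SCI animals. Over all genes this difference of effects had a median of 0.26 with TMM and 0.06 with RLE scaling; the 4 members kept sign and call under both.

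Compared per kilobase of transcript, for the 55 members with a matched length, the order of the levels changed with injury. In uninjured HA IP Cxcl14 led with 11.4 ± 1.35 CPM per kilobase (SD, n = 4), followed by Ccl27a at 7.56 ± 0.43 and Cx3cl1 at 2.64 ± 0.36, which did not overlap. In WT SCI HA IP Cxcl10 led with 30.2 ± 28.8, a range that overlapped the next, Cxcl14 at 6.81 ± 1.66 and Cxcl16 at 4.73 ± 1.85. In the WT SCI excess the first places were Cxcl10 at 32.8 ± 30.2 and Cxcl14 at 7.10 ± 1.94. In WT SCI flow-through Ccl9, Ccl12 and Cxcl16 came first, at 22.2 ± 13.4, 20.5 ± 21.9 and 19.1 ± 6.50, and their ranges overlapped.

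Genes around the chemokine system were tested for injury as well, and their counts stand beside 15.8% of all genes called higher in HA IP, 16.7% in flow-through and 11.2% in the excess. Of 20 genes of receptor signalling, 19 could be tested in HA IP and 8 rose in WT SCI, among them the leukocyte GTPase Rac2 by 4.55 ± 0.76 (SE, adjusted p = 0.000225) and its exchange factor Dock2 by 4.51 ± 0.80 (adjusted p = 0.00038), and 10 of 19 rose in flow-through. Their summed HA IP level was 533 to 604 CPM in uninjured and 517 to 686 in WT SCI animals, which overlapped. In the excess 5 of 18 rose and 2, the arrestin gene Arrb1 and the receptor kinase gene Adrbk2, fell. Of 10 genes of inducing cytokines and their receptors, 4 of 5 tested rose in HA IP, including the interleukin-1 receptor gene Il1r1 by 4.30 ± 0.78 (adjusted p = 0.000485), and 4 of 4 in flow-through. Of 10 transcription factor and feedback genes upstream of chemokine genes, 6 of 10 tested rose in HA IP, among them Nfkbia by 1.18 ± 0.42 (SE, adjusted p = 0.0429); in the excess only Stat3 passed, by 1.69 ± 0.34 (adjusted p = 0.00206). Of 10 other chemoattractant genes, the complement receptor genes C3ar1 and C5ar1 and the platelet factor gene Pf4 rose in HA IP and the chemerin gene Rarres2 fell. Pf4 had no counts in the excess of uninjured or WT SCI animals, so its HA IP counts there were all matched by flow-through. Between genotypes, Stat3 was the only one of these 50 genes called, in HA IP and in the excess.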

How the data were processed

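RNA-seq was made from 22 libraries of 11 mice, each giving an HA IP library and a flow-through one. The deposited values are raw read counts per gene in 5 tables of 24060 rows, and counts shared between tables were identical (0 differed). Per the submitters' processing notes, CASAVA 1.8.2, edgeR and the mm10 build were used; which aligner, counter and annotation made the counts is not given in the sources used here. Of the columns, 124 that match no sample used here were left out. Per the labels' protocols, cDNA was amplified from 5 ng of RNA.

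Counts were tested with edgeR 4.0.16 (quasi-likelihood, filterByExpr, TMM, R 4.3.3), within a fraction over its 3 groups, within a condition between fractions, and over all 22 libraries for the difference of effects. P-values were adjusted over all genes tested (Benjamini-Hochberg) and called under 0.05. HA IP and flow-through libraries pair by animal, since both come from the same mouse; their deviations correlated at 0.223 to 0.772 (excess 0.0210 to 0.512). The excess was added after the counts were seen. Alternatives were RLE scaling, DESeq2 1.42.0, no filter, no ribosomal rows (3), thinning to equal depth, other sets of libraries, the block and leaving out each library. The statistics were tested on simulated data. Count ratios carry exact 95% intervals for counting error only, and floors use 3 counts. Members described by library were those called in a comparison within a fraction and uncalled ones with a mean of at least 10 counts (22). The rule for members reads gene symbols only, but this gene family, its members and the lists were chosen with earlier results of these data known. Some genes that were tested, and are held in the counts, are not reported here by name.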

Additional observations from a re-analysis of the deposited data

Results flagged for a closer look

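In 25 of 88 groups of 4 libraries examined, 1 library stood far from the other 3. A chance rate of about 1 in 20 groups does not apply to low counts, and many of these groups hold few. A group with counts in only 1 library is always flagged, so the 25 flags do not show outlying animals. In WT SCI HA IP, animal 9874 stood high for Ccl6 (4.30 CPM), Cx3cr1 (25.1 CPM) and Cxcl9 (3.17 CPM), and in flow-through for Ccl6 (29.4 CPM) and Cxcl9 (10.1 CPM). Animal 9596 stood high for Ccl27a in HA IP (3.70 CPM) and flow-through (5.79 CPM) and held the single count of Ccl28 (0.0686 CPM). Animal 9843 stood high for Cx3cl1 in HA IP (23.0 CPM) and for Ackr3 in flow-through (0.738 CPM, 1 count). Animal 9935 stood high for Ackr1 (5.21 CPM) and low for Cxcl12 (0 CPM) in HA IP.

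Among uninjured animals, 79 stood high in HA IP for Cxcl10 (1.70 CPM) and Ccl4 (0.00522 CPM, 1 count, with 1 in its flow-through). In flow-through it stood high for Ccl2 (0.0433 CPM, 1 count), Ccl4 (0.0433 CPM, 1 count), Cxcl10 (0.173 CPM, 4 counts) and Cxcl9 (0.0867 CPM, 2 counts). Animal 65 stood high for Ccl3 in HA IP (0.355 CPM) and flow-through (0.729 CPM), and in flow-through for Ccl7 (0.112 CPM, 2 counts) and Cxcl16 (0.953 CPM). Animal 42 stood high in flow-through for Ccl5 (0.875 CPM) and Cxcl14 (3.32 CPM) and low for Ccl6 (0.0954 CPM).

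Effects that differed between the fractions by a test of the difference were those of injury on Cxcr4 (log2 difference -5.63), Cxcl14 (-2.58), Cxcl16 (-2.53) and Cx3cl1 (2.28). With the excess in place of HA IP they were Cxcr4 (-7.72), Cxcl16 (-4.36), Cxcl14 (-2.67), Cx3cl1 (3.20), Ccl9 (-5.05) and Ccl6 (-10.7), and for the genotype effect Ccl9 (5.50). The flow-through count stands on both sides of these excess differences.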

How the results depend on the processing

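All values here are counts of members called, out of those tested where given, unless a log2 difference or all genes are named. For WT SCI against uninjured, thinning to equal depth gave 3 of 9 in place of 14 of 25 in HA IP. It gave 3 of 9 in place of 9 of 21 in the excess and 3 of 5 in place of 16 of 19 in flow-through. Of all genes, 2656 of 11541, 2141 of 10742 and 1499 of 6822 were called in these thinned fits. For STAT3-CKO SCI against uninjured thinning gave 4 of 9, 3 of 9 and 2 of 5 in place of 12 of 25, 9 of 21 and 13 of 19. All-gene calls were 809 of 11541, 517 of 10742 and 517 of 6822. Between fractions thinning gave 5 of 9 in place of 9 of 17 in uninjured cord and 3 of 12 in place of 7 of 24 in STAT3-CKO SCI. With the excess in WT SCI it gave 2 of 3 in place of 5 of 9. All-gene calls were 6358 of 12049, 1273 of 8281 and 491 of 1648. Of the differences of injury effects thinning gave 1 of 7 in place of 4 of 32, and 2 of 8 in place of 6 of 29 with the excess. Of those of genotype effects with the excess it gave 0 of 8 in place of 1 of 29. All-gene calls were 251 of 8890, 582 of 8615 and 7 of 8615, and fewer genes were tested. With only the 2 groups compared, WT SCI against uninjured gave 9 of 16 in HA IP, 5 of 12 in the excess and 7 of 8 in flow-through. All-gene calls were 3977 of 14021, 3097 of 13440 and 3612 of 11619. Subtracting flow-through gave 9 of 21 in place of 14 of 25 for WT SCI against uninjured in HA IP. It gave 5 of 9 in place of 3 of 13 between fractions in WT SCI. For the genotype difference of effects it gave 1 of 29 in place of 0 of 32. The backgrounds after subtraction were 20.6%, 12.2% and 0.107%. Without a filter there were 21 of 54 and 26 of 50 for STAT3-CKO SCI against uninjured in HA IP and flow-through. For the excess against flow-through there were 11 of 47 in STAT3-CKO SCI and 9 of 37 in WT SCI. All-gene calls were 1761 of 18813, 2428 of 17905, 2710 of 17189 and 1442 of 15215. With all 22 libraries in the fit, HA IP against flow-through gave 1 of 32 in STAT3-CKO SCI. The excess gave 4 of 29 there and 10 of 29 in WT SCI. All-gene calls were 1157 of 15142, 2084 of 14903 and 3522 of 14903. For STAT3-CKO SCI against WT SCI, DESeq2 called 1 of 25 in HA IP, 2 of 21 in the excess and 1 of 19 in flow-through. All-gene calls were 866 of 14764, 1117 of 14241 and 179 of 12685. No filter gave 1 of 46 in the excess and 1 of 50 in flow-through, beside 235 of 18084 and 131 of 17905 genes. The genotype difference of effects with the excess gave 2 of 29 under RLE and DESeq2, 2 of 54 with no filter and 2 of 25 without ribosomal rows. All-gene calls were 21 of 14903, 243 of 14903, 72 of 18814 and 21 of 13546. The cause of these changes was not tested.

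With the animal as a replicate block, HA IP against flow-through gave 7 of 13 members in place of 3 in WT SCI. It gave 10 of 17 in place of 9 in uninjured cord and 9 of 24 in place of 7 in STAT3-CKO SCI. All-gene calls under the block were 1096 of 8466, 9082 of 14312 and 3105 of 12659. The difference of injury effects gave 5 of 32 in place of 4, adding Cxcl10 at a log2 difference of -2.91 (adjusted p = 0.0188). Of all genes, 1934 of 15142 were called there. None of the 50 called gene results lost its call under the block.

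Leaving out single libraries gave the following ranges, while the number of members tested changed as well. WT SCI against uninjured ranged from 13 to 15 in HA IP, 5 to 10 in the excess and 12 to 16 in flow-through. STAT3-CKO SCI against uninjured ranged from 10 to 14, 6 to 10 and 10 to 13, and STAT3-CKO SCI against WT SCI from 0 to 1 in each. HA IP against flow-through ranged from 7 to 10 without injury, and after it from 1 to 4 (WT) and 1 to 4 (STAT3-CKO). The excess against flow-through ranged from 8 to 11, 4 to 5 and 3 to 8. The injury difference of effects ranged from 3 to 4 (excess 6 to 9) and the genotype one from 0 to 0 (excess 0 to 2).

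Direction turned in 6 cases, none of them called under the alternative. After subtraction Ccl9 in STAT3-CKO SCI against WT SCI stood at 3.36 and Ccl6 in WT SCI against uninjured at -5.66. Cxcl10 in STAT3-CKO SCI against WT SCI ranged from -0.48 without STAT3-CKO SCI animal 270 to 1.29 without WT SCI animal 9874, and Cx3cl1 in WT SCI HA IP from -0.13 without WT SCI animal 9843 to 0.61 without animal 9874. Ccl7 in the STAT3-CKO SCI excess against uninjured ranged from -3.14 without animal 270 to 7.18 without uninjured animal 79. The Cxcl10 difference of injury effects with the excess stood at 1.27 after thinning. WT SCI HA IP libraries held 620265 to 2691494 counts outside the ribosomal rows and flow-through ones 91626 to 615302, which limits the precision of every comparison with them.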
